A study of Mus musculus with 30 samples.

Results

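Of the enzymes of the tricarboxylic acid (TCA) cycle, the genes described here encode citrate synthase (*Cs*), the E1 and E2 components of the 2-oxoglutarate dehydrogenase complex (*Ogdh*, *Dlst*), the subunits of succinyl-CoA synthetase (*Sucla2*, *Suclg1*, *Suclg2*), fumarase (*Fh1*), and the cytosolic and mitochondrial malate dehydrogenases (*Mdh1*, *Mdh2*). They were taken by name and are 9 of 55791 genes listed in either table of counts; all 9 had enough counts to be tested in both studies. RNA was sequenced from the left ventricle of 30 male wild-type C57BL6J mice, one sample a mouse, in 2 studies. In the peptide study, mice received daily intraperitoneal injections of recombinant human Aβ42, the amyloid beta peptide (n = 7), or of its scrambled control ScrAβ42 (n = 7), from 12 weeks of age by the sample labels, for 4 weeks; the published methods give a range of starting ages up to that age. The daily dose is 1 mg in the sample labels and 1 µg in the published methods, and this difference could not be settled here. In the antibody study, mice received 3D6, an antibody that binds Aβ (n = 8), or a control antibody, labelled Con (n = 8). By the published methods the mice entered the study at 12 weeks of age and the dose was 0.75 mg/kg weekly, on a high-fat diet in both groups. The published results give 4 months of treatment, while the methods have the mice killed 2 weeks after echocardiography at 12 weeks of feeding. The design text of the series describes the antibody mice as also given Aβ42, which the published methods do not.

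The TCA cycle oxidises acetyl-CoA in the mitochondrial matrix and passes the electrons to the respiratory chain as NADH and FADH2, and in the heart, which beats without pause, it is the main route by which fatty acids, glucose, lactate and ketone bodies are burned. Citrate synthase starts the cycle, the 2-oxoglutarate dehydrogenase complex makes succinyl-CoA, succinyl-CoA synthetase converts this to succinate while making ATP or GTP, fumarase hydrates fumarate to malate, and malate dehydrogenase regenerates oxaloacetate. Cardiomyocytes are packed with mitochondria and are rich in these enzymes. In RNA from whole tissue, fewer cells of a type and less RNA per cell cannot be told apart.

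Hearts of the peptide study had total counts of 4478991 to 6015767, those of the antibody study 6397192 to 8310478. Values below are CPM, counts scaled to the normalized library size of each heart within its study, so levels are not compared between studies. A member's raw count in a heart was 322 to 17485 in the former and 54 to 18616 in the latter. Summed CPM of 8 cardiomyocyte genes were at least 42550.3 in every heart given peptide and at least 47764 in every heart given antibody. Summed CPM of 5 atrial genes ranged from 3.82 to 8417 across the hearts of the peptide study, although the ventricle normally expresses them weakly. The hearts that stood apart in the members were Abeta42_3457 and ScrAbeta42_3448, the lowest of their groups in all 9, and Con mouse 22, the lowest of its group in 7 of 9.

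No member differed between the groups of either study beyond the spread between hearts. With Aβ42, 8 of 9 members had lower estimates than with ScrAβ42, where 49.5% of all 11985 tested genes were lower, and their median log2 fold change was -0.036 against 0.0015 over all genes. With 3D6, 8 of 9 had higher estimates than with Con, where 47.4% of all 12274 tested genes were higher, and the median was 0.11 against -0.0098. None of the 9 had an unadjusted p under 0.05 in either study, where 6.51% and 3.64% of all genes did, and none had groups whose ranges did not overlap, where 0.0918% and 0% of all genes did. With edgeR's quasi-likelihood test and Benjamini-Hochberg adjustment, 0 of 11985 genes passed an adjusted p of 0.05 for Aβ42 (0%, with 780 under an unadjusted p of 0.05 and 12 called by DESeq2 and 0 by limma-voom). For 3D6 it was 0 of 12274 (0%, with 447 under an unadjusted p of 0.05 and 0 called by DESeq2 and limma-voom). With total counts in place of TMM scaling, 7 of 9 were lower with Aβ42 (*Mdh1* at 0.0091) and 7 of 9 higher with 3D6 (*Mdh2* at -0.0024). With a score of the 5 atrial genes as a covariate, 0 of 9 were lower with Aβ42 (0.083 to 0.25). In the peptide study the directions rested on single hearts. Without Abeta42_3457 only 2 of 9 were lower with Aβ42 and without ScrAbeta42_3449 only 4 of 9, while without ScrAbeta42_3448 all 9 were. With 3D6, 8 or 9 of 9 members were higher whichever heart of the antibody study was left out, but without Con mouse 22 the log2 fold changes fell to 0.016 for *Ogdh*, 0.031 for *Sucla2*, 0.039 for *Dlst*, 0.061 for *Suclg2*, 0.084 for *Cs* and 0.10 for *Mdh1*.

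**Figure D1:**
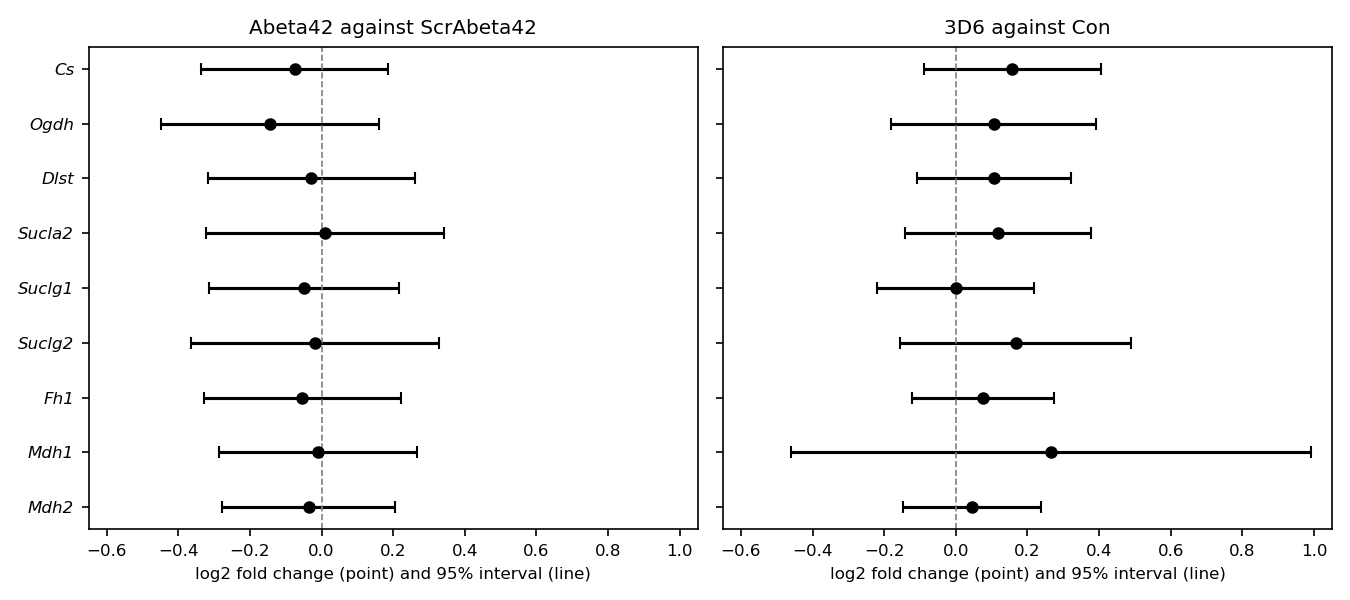
Log2 fold change of each member, estimated by edgeR (points) with its 95% interval (lines), for Aβ42 against ScrAβ42 (left, 7 hearts a group) and 3D6 against Con (right, 8 hearts a group). All 18 intervals include 0, the widest being that of *Mdh1* in the antibody study.

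Citrate synthase joins acetyl-CoA to oxaloacetate, and its activity is often used as a measure of mitochondrial content. *Cs* lies at chr10:128337734-128362479 on the forward strand (ENSMUSG00000005683) of the mouse genome build GRCm38, to which all positions here refer. It was between 1115 and 1911 CPM with Aβ42 (median 1617, n = 7) and between 1209 and 1795 CPM with ScrAβ42 (median 1682, n = 7). The groups overlapped, and the lowest hearts were Abeta42_3457 and ScrAbeta42_3448. Group levels were 1537 ± 265 against 1619 ± 206 CPM (mean ± SD), 2 of 7 Aβ42 hearts lay above the ScrAβ42 median, and the log2 fold change was -0.075 (SE 0.12, 95% interval -0.34 to 0.19, edgeR adjusted p = 0.946). Among the antibody mice *Cs* was between 797 and 1098 CPM with 3D6 (median 944, n = 8) and between 512 and 1021 CPM with Con (median 887, n = 8). Con mouse 22 was at 512 CPM and the next Con heart at 770.4, and 6 of 8 3D6 hearts exceeded the Con median. The log2 fold change with 3D6 was 0.16 (SE 0.12, 95% interval -0.090 to 0.41, edgeR adjusted p = 0.946), and it was 0.084 without Con mouse 22. The near copies of *Cs* in the genome are *Csl* and the processed pseudogene *Gm48254*, which match its main transcript at 91.9% and 92.1% identity over 1522 and 469 bases. *Csl* had a mean of 5.86 counts per heart with peptide and 0.188 with antibody, so few counts were assigned to it.

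The 2-oxoglutarate dehydrogenase complex is built from the decarboxylase E1, encoded by *Ogdh*, the succinyltransferase E2, encoded by *Dlst*, and the E3 subunit that it shares with pyruvate dehydrogenase, and it is activated by calcium in the matrix. *Ogdh* lies at chr11:6291633-6356642 on the forward strand (ENSMUSG00000020456). It was between 1632 and 3273 CPM with Aβ42 (median 2834, n = 7) and between 2147 and 3410.1 CPM with ScrAβ42 (median 3142, n = 7). It had the largest estimate of the 9 in the peptide study: 2711 ± 542 against 2996 ± 425 CPM (mean ± SD), a log2 fold change of -0.14 (SE 0.14, 95% interval -0.45 to 0.16, edgeR adjusted p = 0.900). Only 1 of 7 Aβ42 hearts lay above the ScrAβ42 median, and Abeta42_3457 was far below the others at 1632 CPM. Without that mouse the log2 fold change was -0.052. Among the antibody hearts *Ogdh* was between 1908 and 2416 CPM with 3D6 (median 1979.9, n = 8) and between 982 and 2356 CPM with Con (median 1962, n = 8). The estimate was 0.11 (SE 0.14, 95% interval -0.18 to 0.39, edgeR adjusted p = 0.946), and 4 of 8 3D6 hearts exceeded the Con median. *Dlst* lies at chr12:85110833-85134845 on the forward strand (ENSMUSG00000004789). It was between 463 and 794 CPM with Aβ42 (median 679, n = 7) and between 519.5 and 904 CPM with ScrAβ42 (median 663, n = 7). Its hearts lay on both sides of the control median, 4 of 7 Aβ42 hearts lying above it, with a log2 fold change of -0.028 (SE 0.14, 95% interval -0.32 to 0.26, edgeR adjusted p = 0.980). *Dlst* in the antibody study was between 393 and 480.0 CPM with 3D6 (median 447, n = 8) and between 265 and 481 CPM with Con (median 434, n = 8). The log2 fold change with 3D6 was 0.11 (SE 0.10, 95% interval -0.11 to 0.32, edgeR adjusted p = 0.946), and Con mouse 22 lay below every other heart.

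The antibody table lists transcripts. Ogdh-202 replaces exon 4 of Ogdh-201 with another exon that keeps the reading frame, and both sequences are shown because they tell these forms of the E1 enzyme apart. The exon of Ogdh-201 has 103 bases (chr11:6316978-6317080 of GRCm38, forward strand) and that of Ogdh-202 has 91 (chr11:6316765-6316855, forward strand), both coding throughout. They read, 5′ to 3′, with no part in capitals:
Ogdh-201 exon 4: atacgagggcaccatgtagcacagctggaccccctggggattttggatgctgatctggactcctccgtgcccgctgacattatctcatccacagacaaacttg
Ogdh-202 exon 4: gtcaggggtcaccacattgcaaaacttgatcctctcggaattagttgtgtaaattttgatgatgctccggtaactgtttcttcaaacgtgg
The form with the second exon was rare in these ventricles: Ogdh-202 had at most 0.979% of the gene's counts in any heart (median 0.783%, mean 96.3 counts), and its log2 fold change with 3D6 was 0.57 (SE 0.55).

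Succinyl-CoA synthetase pairs the alpha subunit encoded by *Suclg1* with a beta subunit that sets which nucleotide is made, ATP with that of *Sucla2* and GTP with that of *Suclg2*. *Sucla2* lies at chr14:73525319-73596142 on the forward strand (ENSMUSG00000022110). It was between 413 and 917 CPM with Aβ42 (median 739, n = 7) and between 502 and 822 CPM with ScrAβ42 (median 692, n = 7). It was the one member whose estimate was not lower with Aβ42, at 0.010 (SE 0.16, 95% interval -0.32 to 0.34, edgeR adjusted p = 0.995). *Sucla2* in the antibody study was between 312 and 385 CPM with 3D6 (median 354, n = 8) and between 177 and 391 CPM with Con (median 333, n = 8). Con mouse 22, at 177 CPM, stood below all 15 others, and the log2 fold change with 3D6 was 0.12 (SE 0.12, 95% interval -0.14 to 0.38, edgeR adjusted p = 0.946). *Suclg2* lies at chr6:95473009-95718800 on the reverse strand (ENSMUSG00000061838) and was the lowest member per kilobase. Its level was between 44.2 and 111 CPM with Aβ42 (median 99.9, n = 7) and between 68.5 and 108 CPM with ScrAβ42 (median 94.4, n = 7), with a log2 fold change of -0.019 (SE 0.16, 95% interval -0.36 to 0.33, edgeR adjusted p = 0.991). *Suclg2* was, in the antibody study, between 115 and 138 CPM with 3D6 (median 121, n = 8) and between 47.6 and 148 CPM with Con (median 111, n = 8). Here 8 of 8 3D6 hearts exceeded the Con median, but 3 Con hearts reached 129, 135 and 148 CPM, so the ranges overlapped, and the log2 fold change was 0.17 (SE 0.15, 95% interval -0.15 to 0.49, edgeR adjusted p = 0.946). Con mouse 22 was lowest, at 47.6 CPM, and without it the log2 fold change was 0.061. The alpha subunit gene, *Suclg1*, lies at chr6:73248382-73276911 on the forward strand (ENSMUSG00000052738). It was between 274 and 447 CPM with Aβ42 (median 391, n = 7) and between 299.6 and 518 CPM with ScrAβ42 (median 367, n = 7), with a log2 fold change of -0.048 (SE 0.12, 95% interval -0.31 to 0.22, edgeR adjusted p = 0.962). In the antibody study it was between 202 and 303 CPM with 3D6 (median 271, n = 8) and between 202 and 302 CPM with Con (median 257, n = 8). The groups had nearly the same mean, 259.5 ± 37.1 against 259.5 ± 34.0 CPM (mean ± SD), with a log2 fold change of -0.00019 (SE 0.10, 95% interval -0.22 to 0.22, edgeR adjusted p = 1.00). Here Con mouse 22, lowest in both beta subunits, was the highest Con heart, at 302 CPM. The processed pseudogene *Gm15163* matches *Suclg2* at 99.1% identity over 1216 bases and had means of 2.64 and 6.50 counts per heart, so some reads of *Suclg2* may have been assigned to it.

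Fumarase, which is found in mitochondria and cytosol from the same gene, was measured as *Fh1*, at chr1:175600374-175625635 on the reverse strand (ENSMUSG00000026526). It was between 306 and 593 CPM with Aβ42 (median 506, n = 7) and between 393 and 589 CPM with ScrAβ42 (median 511, n = 7). The groups overlapped, and the log2 fold change was -0.053 (SE 0.13, 95% interval -0.33 to 0.22, edgeR adjusted p = 0.962). In the antibody study *Fh1* was between 203 and 285 CPM with 3D6 (median 258, n = 8) and between 207 and 268 CPM with Con (median 235, n = 8), with a log2 fold change of 0.077 (SE 0.094, 95% interval -0.12 to 0.27, edgeR adjusted p = 0.946).

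Malate dehydrogenase exists as a matrix enzyme of the cycle, encoded by *Mdh2*, and a cytosolic enzyme of the malate-aspartate shuttle, encoded by *Mdh1*, which carries cytosolic NADH into mitochondria as malate. *Mdh2* lies at chr5:135778480-135790398 on the forward strand (ENSMUSG00000019179). It was between 971 and 1583 CPM with Aβ42 (median 1292, n = 7) and between 1106 and 1591 CPM with ScrAβ42 (median 1338, n = 7), with a log2 fold change of -0.036 (SE 0.11, 95% interval -0.28 to 0.21, edgeR adjusted p = 0.969). *Mdh2* in the antibody study was between 811 and 1104 CPM with 3D6 (median 989, n = 8) and between 763 and 1088 CPM with Con (median 962, n = 8), with a log2 fold change of 0.046 (SE 0.092, 95% interval -0.15 to 0.24, edgeR adjusted p = 0.950). *Mdh2* varied least of the 9 within groups, with an SD of 0.21 and 0.16 on the log2 scale, against medians of 0.23 and 0.28 over all tested genes. *Mdh1* lies at chr11:21556787-21572367 on the reverse strand (ENSMUSG00000020321). It was between 1373 and 2329 CPM with Aβ42 (median 2055, n = 7) and between 1525 and 2536 CPM with ScrAβ42 (median 1941, n = 7). Its groups could hardly be told apart, 1973 ± 344 against 1986 ± 304 CPM (mean ± SD), with a log2 fold change of -0.0095 (SE 0.13, 95% interval -0.29 to 0.27, edgeR adjusted p = 0.994). In the antibody table, the main coding transcript of *Mdh1* (Mdh1-201, 2122 bases) was listed at 0 in all 16 hearts, and nearly all counts of the gene came from the short transcripts Mdh1-202 and Mdh1-203, of 549 and 644 bases. The level there, between 56.3 and 146 CPM with 3D6 (median 89.7, n = 8) and between 7.70 and 125 CPM with Con (median 90.1, n = 8), is therefore that of these fragments and not of the full gene. Counts of transcripts outside the annotation used here were assigned to no gene, and whether any of them belong to *Mdh1* was not settled, which limits every value of *Mdh1* in the antibody study. The log2 fold change of this remnant with 3D6 was 0.27 (SE 0.35, 95% interval -0.46 to 0.99, edgeR adjusted p = 0.946), and its within-group SD of 0.98 was the widest of the 9. Con mice 22 and 18 were lowest, at 7.70 and 32.2 CPM.

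Mdh2-203, annotated as a target of nonsense-mediated decay, lacks exon 2 of Mdh2-201, which has 169 bases, not a multiple of 3, and is coding throughout (chr5:135783305-135783473 of GRCm38, forward strand). This exon is shown because its absence marks the form of *Mdh2* that stood apart in one heart:
Mdh2-201 exon 2: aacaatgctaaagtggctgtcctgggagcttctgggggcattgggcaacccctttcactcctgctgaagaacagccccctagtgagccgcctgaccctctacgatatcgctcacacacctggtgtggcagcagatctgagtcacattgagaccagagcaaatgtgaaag
Mdh2-203 had between 4.89% and 14.2% of the counts of *Mdh2* in 15 hearts and 43.9% in Con mouse 22, and its log2 fold change with 3D6 was -0.59 (SE 0.42) with that mouse and -0.014 without it. Estimated counts of transcripts share reads, so they do not by themselves show that the exon was skipped. Con mouse 22 also stood apart in Dlst-211, a non-coding transcript of 2152 bases, with 75.2% of the counts of *Dlst* against at most 38.4% elsewhere. Fh1-205, of 542 bases, had 30.7% of the counts of *Fh1* there and between 6.04% and 16.1% in the others. After Con mouse 22, Con mouse 18 had the highest share of Mdh2-203, Dlst-211 and Fh1-205 and the next lowest long-over-short index, and both had 0 counts of Mdh1-202.

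**Figure D2:**
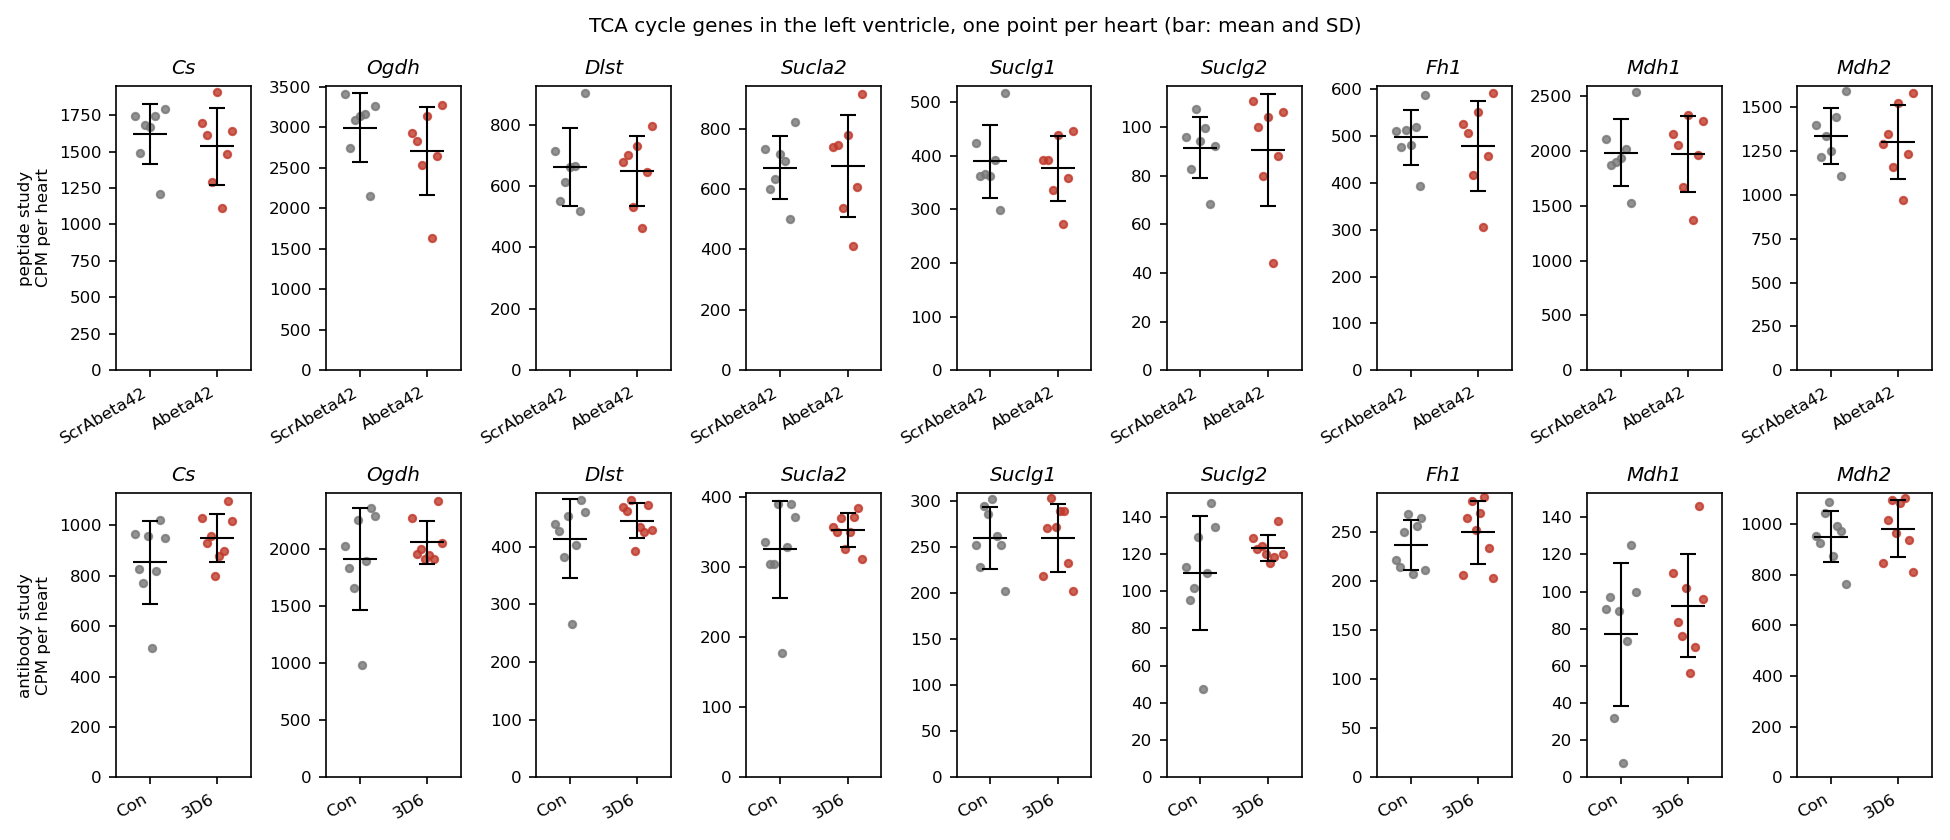
Normalized CPM of each member in every heart (points), with the mean and SD of each group (black bars), in the peptide study (top) and the antibody study (bottom); every axis starts at 0. The groups overlap in all 18 panels, and single low hearts (Abeta42_3457, ScrAbeta42_3448, Con mouse 22) set much of the spread.

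Per kilobase of transcript, which allows genes to be set side by side, the members spanned a wide range of levels, and *Mdh2*, *Ogdh*, *Cs* and *Sucla2* stood in this order in both studies. In the peptide study, with the length of each gene's transcripts weighted by their counts, levels were 935 ± 128 CPM per kilobase for *Mdh2* (mean ± SD over 14 hearts), 693 ± 119 for *Ogdh*, 539 ± 79.3 for *Cs* and 362 ± 72.3 for *Sucla2*. Each of these lay above the next in all 14 hearts, although the ranges over hearts overlapped. *Suclg1* and *Dlst* followed at 253 ± 41.1 and 244 ± 43.5 CPM per kilobase, an order held by 10 of 14 hearts, so this pair did not differ beyond its spread. *Fh1* was at 206 ± 32.4 and *Suclg2*, far below in every heart, at 32.3 ± 6.34 CPM per kilobase. With every gene on its longest transcript, *Mdh1* (2122 bases) ranked first at 933 ± 147 CPM per kilobase, above *Mdh2* at 821 ± 112; its weighted length of 591 bases rests on the fragments in the antibody table and would give 3351 ± 528. Among all tested genes, 7 of the 8 members other than *Mdh1* lay at percentiles 97.8 to 99.4 of level per weighted kilobase in the peptide study and *Suclg2* at percentile 86.1. The order in the antibody study was *Mdh2* (685 ± 74.1 CPM per kilobase over 16 hearts), *Ogdh* (482 ± 82.4), *Cs* (308 ± 47.4), *Sucla2* (182 ± 28.0), *Suclg1* (171 ± 22.7), *Dlst* (160.2 ± 19.9), the fragments of *Mdh1* (143 ± 56.6), *Fh1* (102 ± 12.1) and *Suclg2* (41.3 ± 8.0). *Mdh2* was above *Ogdh* in 15 of 16 hearts and *Cs* above *Sucla2* in all 16, while *Sucla2* was above *Suclg1* in 11 and *Suclg1* above *Dlst* in 10, so the middle of the order was not resolved. With the longest transcript of each gene as its length, 6 of 9 members kept their rank in the peptide study, as did 5 of 9 in the antibody study. *Suclg1*, whose longest transcript has 2767 bases against a weighted 1515, moved down.

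**Figure D3:**
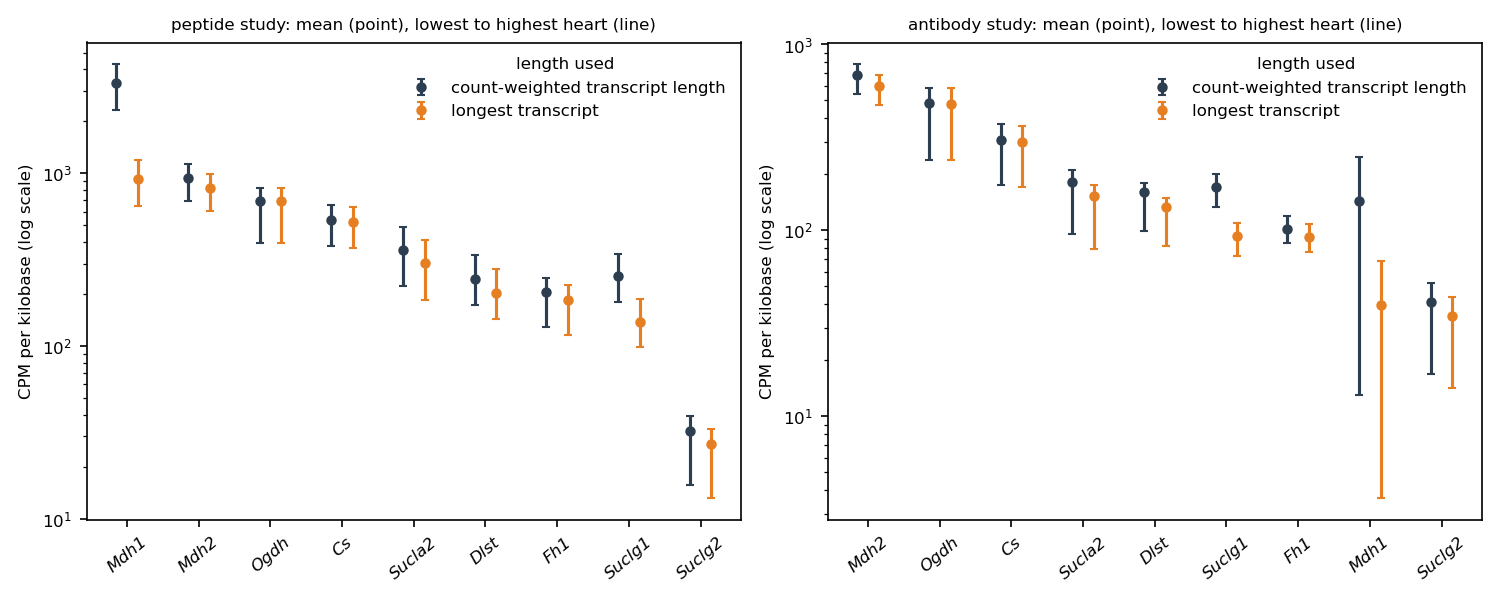
Level of each member in CPM per kilobase on a log scale, with the mean over hearts (points) and the lowest to highest heart (lines), for 2 choices of gene length, in the peptide study (left, 14 hearts) and the antibody study (right, 16 hearts). *Suclg2* is lowest in the peptide study under both lengths, and *Mdh1* moves with the length used.

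Ratios within a heart do not depend on the normalization and were compared between groups as the balance of partner enzymes. Per kilobase, the ATP-forming *Sucla2* exceeded the GTP-forming *Suclg2* in every heart, by 8.91 to 14.1 times in the peptide study (mean 11.3) and by 3.94 to 5.64 times in the antibody study (mean 4.48). On counts, the log2 ratio of *Sucla2* to *Suclg2* was 2.91 ± 0.19 against 2.87 ± 0.18 for Aβ42 against ScrAβ42 (difference 0.043, two-sided exact permutation p = 0.664, adjusted p = 0.736 over 8 tests). It was 1.52 ± 0.089 against 1.60 ± 0.15 for 3D6 against Con (difference -0.081, two-sided exact permutation p = 0.207, adjusted p = 0.736 over 8 tests). Without Con mouse 22 that difference was -0.039. The ratio of both beta subunits to the alpha subunit gave 1.00 ± 0.16 against 0.97 ± 0.11 on the log2 scale in the peptide study (exact permutation p = 0.726). It gave 0.89 ± 0.21 against 0.72 ± 0.52 in the antibody study (exact permutation p = 0.473), where Con mouse 22 was lowest at -0.42 and Con mouse 8 highest at 1.33. The difference between groups was 0.17 with all hearts, 0.0092 without Con mouse 22 and 0.26 without Con mouse 8. For *Ogdh* to *Dlst*, the E1 and E2 of one complex, the log2 ratio was 2.05 ± 0.13 against 2.19 ± 0.17 in the peptide study (difference -0.13, two-sided exact permutation p = 0.143, adjusted p = 0.736 over 8 tests) and 2.21 ± 0.10 against 2.18 ± 0.14 in the antibody study (exact permutation p = 0.736). The peptide value had the smallest p of the 8 comparisons, and without ScrAbeta42_3449 the difference was -0.19 (exact permutation p = 0.0175, adjusted p = 0.140). Without Abeta42_3457 it was -0.092 (exact permutation p = 0.276). *Mdh2* to *Mdh1* was -0.60 ± 0.088 against -0.57 ± 0.082 in the peptide study (exact permutation p = 0.538) and varied little, between -0.74 and -0.46 over all 14 hearts. Among the antibody mice the same ratio was 3.45 ± 0.55 against 3.97 ± 1.33 (exact permutation p = 0.377), but its denominator holds only the fragments of *Mdh1*. Its difference between groups was -0.51 with all hearts and -0.10 without Con mouse 22. All 8 adjusted p were 0.736, so no balance differed between groups beyond the spread between hearts.

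Across the hearts of the peptide study the members varied as a block. With each group centred on its mean log2 CPM, all 36 pairs of members were positively correlated, with r from 0.74 to 0.98 (median 0.93, 14 hearts, given as a description: the pairs share libraries and normalization). The genes most like the members' mean profile among 11941 others were *Atp5a1* (r = 0.99) and *Atp5f1*, subunits of ATP synthase, *Uqcrc1* of respiratory complex III, *Acat1* of ketone body and isoleucine breakdown, and *Hrc*, a calcium-binding protein of the sarcoplasmic reticulum. The same profile followed the mean of 8 cardiomyocyte genes (r = 0.96) and ran against that of 5 fibroblast genes (r = -0.96), against the atrial genes (r = -0.73) and against the TMM normalization factor (r = -0.97). CPM are divided by the TMM factor, so part of that last r is built in. For the other lists r was -0.76 (smooth muscle and pericytes), -0.72 (macrophages and leukocytes), -0.67 (adipocytes), -0.53 (mesothelium), -0.18 (fast skeletal muscle), 0.012 (blood) and 0.63 (endothelial cells), and for the mitochondrial share of counts it was 0.71. The hearts lowest in the members stood apart in these lists too. Abeta42_3457 had summed CPM of 42550.3 for cardiomyocyte genes, 1758 for fibroblast genes and 8417 for atrial genes, and ScrAbeta42_3448 had 55103, 1888 and 3665. High atrial sums were not limited to these hearts. Abeta42_3455 had 4707, Abeta42_3458 had 4357 and Abeta42_3451 had 1158 CPM. After Abeta42_3457, Abeta42_3455 and then Abeta42_3458 were the lowest Aβ42 hearts in all 9 members. The members' summed CPM were 6591 in Abeta42_3457, 8551 in Abeta42_3455, 9481 in Abeta42_3458 and 10518 in Abeta42_3451, with a median of 10294 over the Aβ42 hearts. Medians over the Aβ42 and ScrAβ42 groups were 69319.8 and 71027 for cardiomyocyte genes and 780.4 and 875 for fibroblast genes. They were 1158 and 10.5 CPM for atrial genes. All 5 atrial genes had higher estimates with Aβ42 (median log2 fold change 2.31, 1 of 5 with an unadjusted p under 0.05), their sum ranged from 12.4 to 8417 CPM with Aβ42 and from 3.82 to 3665 with ScrAβ42, and none was at 0 in every heart. With the atrial score as a covariate all 9 members had higher estimates with Aβ42, from 0.083 for *Ogdh* to 0.25 for *Sucla2*, and none passed an adjusted p of 0.05.

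The members did not form a single block in the antibody study. *Cs*, *Ogdh*, *Dlst*, *Sucla2*, *Suclg2* and *Mdh1* were correlated with each other (15 pairs, r from 0.86 to 0.97), as were *Suclg1*, *Fh1* and *Mdh2* (3 pairs, r from 0.72 to 0.90), while r between these sets ran from -0.57 to 0.43 with a median of 0.019 (18 pairs, 16 hearts). The sets were drawn after the correlations were seen, and these values are a description. Without Con mouse 22 the ranges were 0.43 to 0.89 within the 6, 0.90 to 0.96 within the 3 and -0.61 to 0.37 between them, with a median of -0.25. *Suclg1* and *Cs*, correlated at 0.88 in the peptide study, were at -0.53 in the antibody study. The genes most like the members' mean profile among 12122 others were again *Atp5a1* (r = 0.99) and *Acat1* (r = 0.97), followed by *Hadh* of fatty acid oxidation, *Pcca* of propionyl-CoA breakdown and *Poldip2*. Cardiomyocyte genes followed the profile only weakly there, with r = 0.35. This profile joins both sets of members and is the mean of their standardized values. It was -2.16 in Con mouse 22 and between -0.63 and 0.92 in the other hearts. That heart was also highest in the endothelial, fibroblast, macrophage and leukocyte, and blood sums, and no r with the profile is given without it. For fibroblast genes r was -0.26, for endothelial -0.67, for blood -0.56, for macrophage and leukocyte genes -0.50, and for the TMM factor, again partly built in, -0.72. It was -0.43 for mesothelial, -0.33 for adipocyte, -0.14 for atrial and -0.14 for smooth muscle and pericyte genes. For the mitochondrial share of counts it was 0.56.

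**Figure D4:**
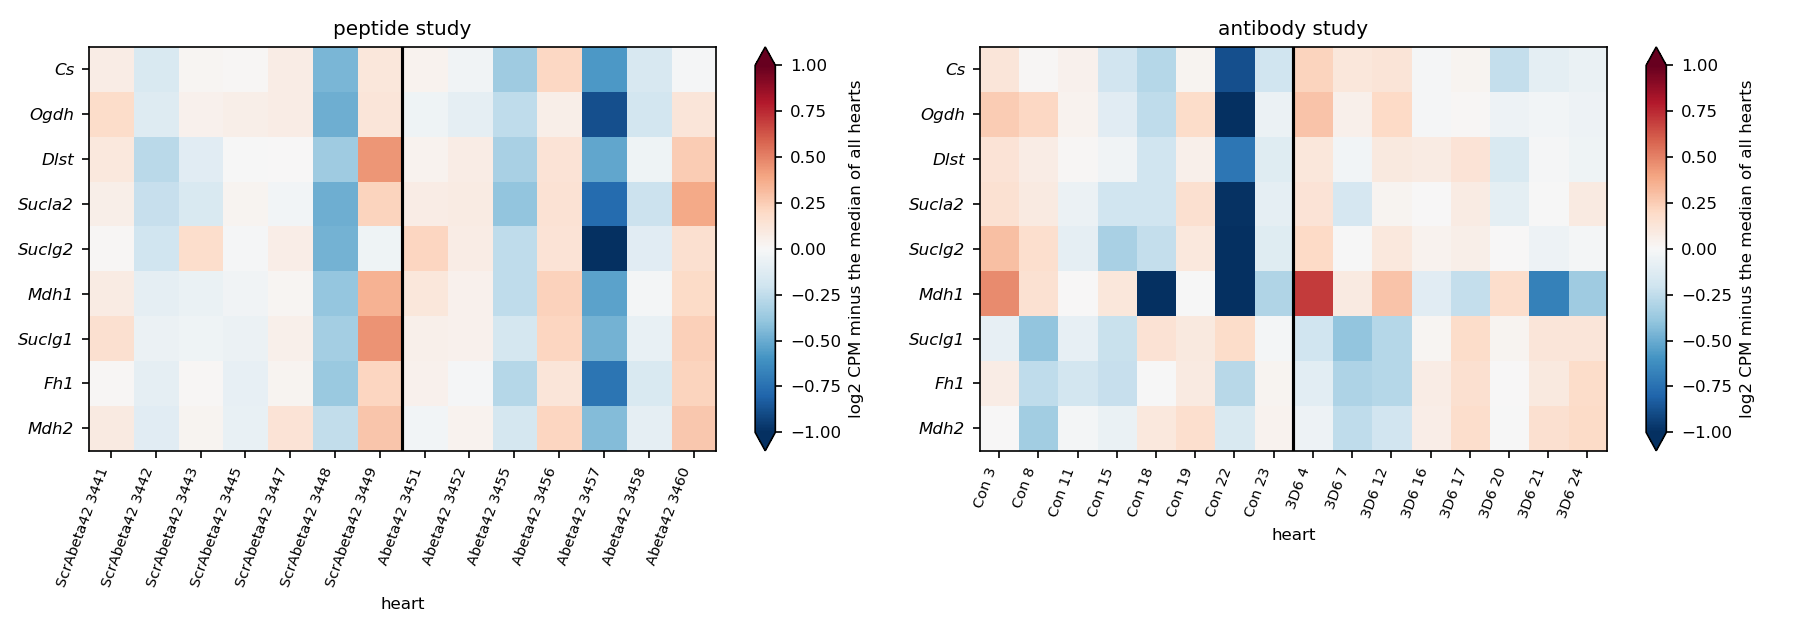
Log2 CPM of each member (rows) in each heart (columns), as the difference from the gene's median over all hearts of its study; the black line separates the control hearts (left) from the treated hearts (right), and the scale ends at -1 and 1. In the peptide study whole columns are low together (Abeta42_3457 and ScrAbeta42_3448), while in the antibody study the lower 3 rows vary apart from the upper 6, and Con mouse 22 is low in the upper 6.

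The promoters of *Cs* and *Suclg1* are shown because these genes moved together across the hearts of the peptide study and apart in the antibody study. Each runs from 250 bases before to 50 after the RefSeq start of the gene (GRCm38.p6, forward strand, chr10:128337477-128337776 for *Cs* and chr6:73248255-73248554 for *Suclg1*), and capitals mark GGGCGG on either strand, the core of a GC box, to which Sp1-like factors bind:
Cs promoter: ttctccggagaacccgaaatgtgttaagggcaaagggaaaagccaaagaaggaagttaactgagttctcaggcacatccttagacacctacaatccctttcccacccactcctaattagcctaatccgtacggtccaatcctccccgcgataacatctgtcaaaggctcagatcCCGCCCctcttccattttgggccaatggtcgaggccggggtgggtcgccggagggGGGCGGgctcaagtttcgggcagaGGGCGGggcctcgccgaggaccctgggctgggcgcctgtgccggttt
Suclg1 promoter: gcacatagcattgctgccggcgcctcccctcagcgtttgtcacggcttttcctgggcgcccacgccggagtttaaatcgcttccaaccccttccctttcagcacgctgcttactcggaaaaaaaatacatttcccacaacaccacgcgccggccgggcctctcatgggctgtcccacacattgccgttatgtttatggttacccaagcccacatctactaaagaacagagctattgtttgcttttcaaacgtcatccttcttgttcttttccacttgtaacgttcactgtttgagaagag
RefSeq entries matched all 9 members. GGGCGG was present in 8 of 9, against 35.7% of 32851 promoters of this length. It had 3 matches in *Cs*, 7 in *Suclg2*, 1 in *Fh1*, 2 in *Mdh2* and none in *Suclg1*. *Fh1* and *Mdh2*, which had the motif, were correlated with *Suclg1* in the antibody study, and any part of the motif in these correlations was not tested. The GC content was 51.0% for *Suclg1*, 58.7% for *Cs* and 54.3% to 67.7% for the other members, with a median of 52.7% over all promoters. AAGGTCA, the half-site of estrogen-related receptors, was in none of these windows (all promoters 4.72%), the palindromic NRF1 motif in that of *Sucla2* only (4.60%), CCGGAAG of ETS factors in that of *Dlst* only (8.86%), and ATGGCG of YY1 in those of *Sucla2* and *Mdh1* (8.93%), each searched on both strands. The RefSeq starts lie 7 bases from that of Cs-201 and 123 from that of Suclg1-201, but that of *Suclg2* lies 25964 bases from the start of Suclg2-201, its most counted transcript, and a match is a description of the letters in the window.

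A measure of transcript length in each library moved with this pattern. For the long-over-short transcript index, the log2 CPM of each gene was centred on its mean over all hearts of the study. The index is the median of genes with transcripts of at least 4000 bases minus that of genes with at most 1500. It spanned -0.18 to 0.21 with the peptides and -0.50 to 0.56 in the antibody study, where Con mouse 22 was lowest and Con mouse 8 highest. Among the antibody mice *Suclg1* ran against the index (r = -0.95), as did *Mdh2* (-0.77) and *Fh1* (-0.65), while *Cs* (0.66), *Ogdh* (0.63), *Mdh1* (0.63), *Dlst* (0.51), *Suclg2* (0.50) and *Sucla2* (0.37) ran with it. In the peptide study all 9 ran against it, from -0.93 for *Mdh2* to -0.72 for *Suclg2*. The index was -0.14 at the median of the 3D6 hearts and -0.070 at that of the Con hearts, and its part in the differences between groups was not tested beyond its use as a covariate. With the index as a covariate, an alternative chosen after seeing the data, all 9 members had higher estimates with 3D6, from 0.061 for *Suclg1* to 0.18 for *Mdh1*, and none passed an adjusted p of 0.05. The share of counts from the mitochondrial genome, 33.2% at the median of the 3D6 hearts and 31.2% at that of the Con hearts, followed *Cs* (r = 0.85), *Ogdh* (0.84), *Dlst* (0.79), *Suclg2* (0.78), *Mdh1* (0.76) and *Sucla2* (0.73), and ran against *Suclg1* (-0.67), *Mdh2* (-0.38) and *Fh1* (-0.15). With that share as a covariate the log2 fold changes with 3D6 were 0.039 for *Cs* and -0.023 for *Ogdh*, while that of *Suclg1* turned from negative to positive.

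The transcripts of the antibody table show which forms of each enzyme were counted. Of the members' 56 transcripts, 23 had a mean of at least 10 estimated counts per heart and 7 were at 0 in all hearts. None of the 23 had an unadjusted p under 0.05, where 2.4% of all 20857 tested transcripts did, and 0 of 20857 passed an adjusted p of 0.05 (0%; edgeR, with 500 at an unadjusted p under 0.05 and 0 called by limma-voom). *Cs* was counted almost wholly as Cs-201 and *Suclg1* as Suclg1-201, with at least 99.8% and 98.7% of their counts in every heart. *Sucla2* was shared between Sucla2-201 and Sucla2-203, with Sucla2-201 between 39.7% and 62.0% in 15 hearts (log2 fold change with 3D6 0.18, SE 0.37) and at 5.89% in Con mouse 22. *Suclg2* was divided between Suclg2-201 (52.1% to 75.0%) and Suclg2-204 (24.7% to 47.9%). For *Ogdh*, Ogdh-201 had 79.2% to 99.7% of the counts, and Ogdh-204, which differs from it only in the ends of its first and last exons, took up to 19.5% (log2 fold change with 3D6 0.28, SE 0.69).

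**Figure D5:**
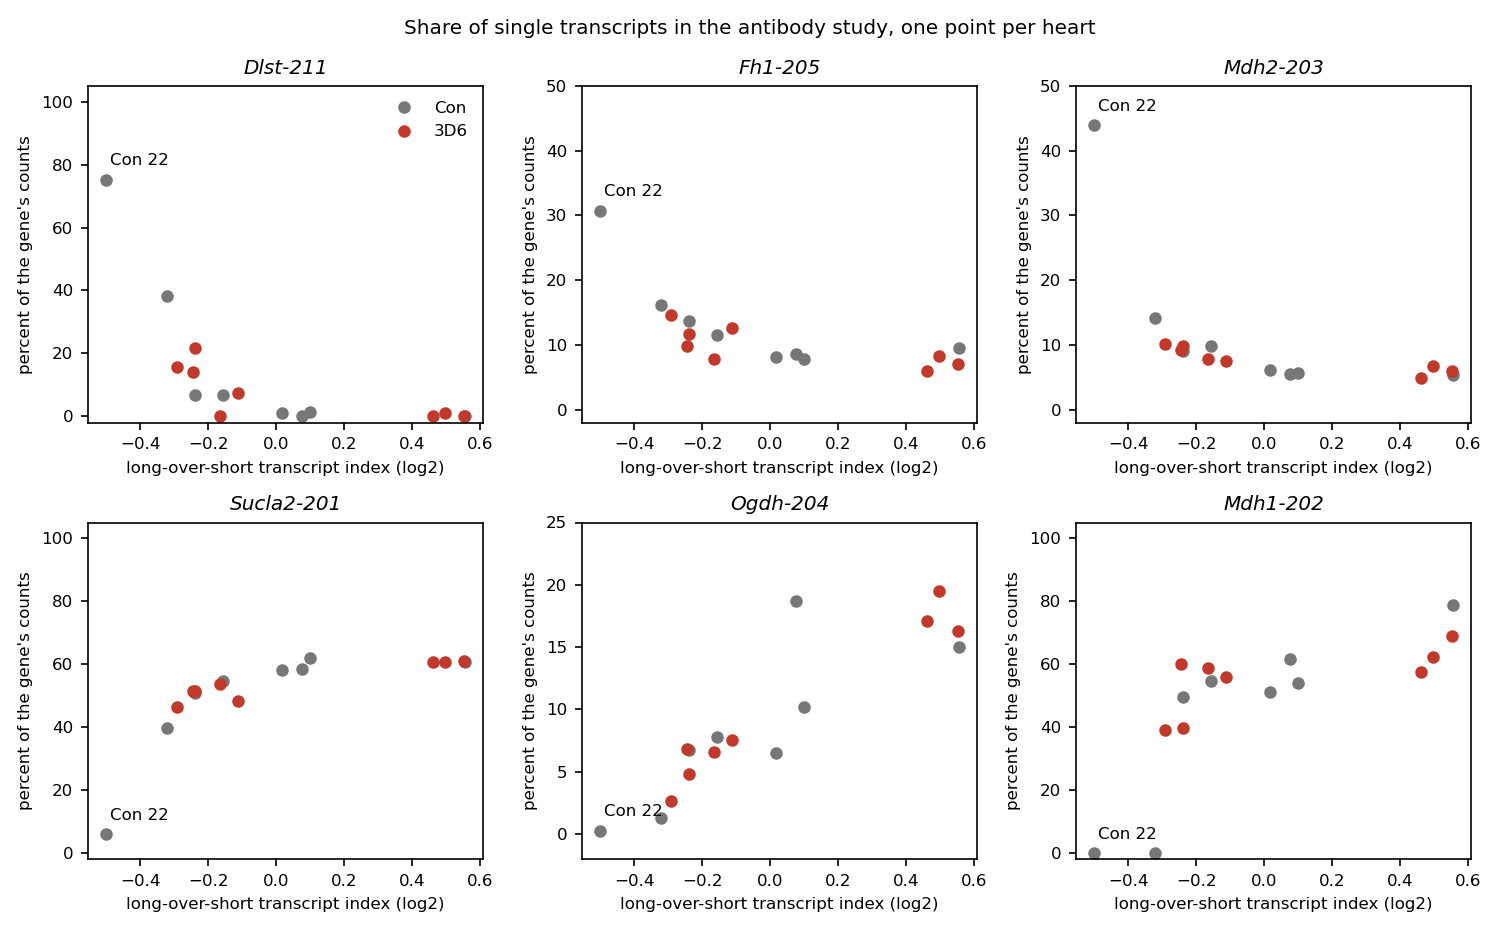
Share of single transcripts in the counts of their gene (percent) against the long-over-short transcript index of the library (log2 units), one point for each of the 16 hearts of the antibody study. Con mouse 22 is at one end of every panel, and the 3D6 and Con hearts otherwise mix along the index.

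The partner genes of the pathway, from lists taken by function, were counted in the same way. Among 9 further subunits and enzymes of the cycle (*Idh2*, *Idh3a*, *Idh3b*, *Idh3g*, *Dld* and the 4 succinate dehydrogenase subunits), 9 of 9 had lower estimates with Aβ42 (background 49.5%; median log2 fold change -0.058), and 6 of 9 had higher estimates with 3D6 (background 47.4%; median 0.061). None had an unadjusted p under 0.05 in either study. Their mean followed the members' profile across hearts with r = 0.99 and 0.82. Of the 5 partners in the malate-aspartate shuttle, 4 had lower estimates with Aβ42 (median -0.054) and 5 had higher estimates with 3D6 (median 0.18), none with an unadjusted p under 0.05. Of 15 tested genes by which carbon enters or leaves the cycle, such as pyruvate dehydrogenase and pyruvate carrier subunits, 11 had lower estimates with Aβ42 (median -0.053, none with an unadjusted p under 0.05) and 11 had higher estimates with 3D6 (median 0.056, and 1 of the 15 with an unadjusted p under 0.05, background 3.64%). That gene, *Acly*, the cytosolic ATP citrate lyase, was one of the 4 with lower estimates, at 22.3 ± 2.03 against 25.8 ± 3.78 CPM with 3D6 against Con (log2 fold change -0.21, edgeR adjusted p = 0.946). Of 4 tested paralogs and accessory genes, 2 had lower estimates with Aβ42 and 3 had higher estimates with 3D6, none with an unadjusted p under 0.05, while the malate dehydrogenase paralog *Mdh1b* was at 0 in every heart of both studies.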

How the data were processed

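RNA from left ventricles was made into stranded total RNA libraries and sequenced by the authors, who quantified it with Salmon against GENCODE vM24 transcripts (mouse build GRCm38). The authors deposited whole-number counts per gene for the peptide study (49671 genes) and estimated counts per transcript for the antibody study (142647 transcripts), neither normalized. Estimated counts were summed to genes and rounded here, with names from GENCODE vM21 (99.5% of peptide genes and 99.2% of transcripts matched), and the other transcripts were kept as features of their own. In the peptide table, 1 column of per-sample values has no counterpart among the labels and was left out.

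Genes whose count averaged 10 or more over the hearts entered the test, run in each study separately with edgeR 4.0.16 (quasi-likelihood test, TMM normalization, two-sided) under R 4.3.3, with Benjamini-Hochberg adjustment over all genes tested and a threshold of 0.05. CPM are TMM-normalized, and log2 CPM carry a prior count of 2. Ratios were compared by exact permutation over hearts, adjusted over 8 tests. Level per kilobase used the count-weighted transcript length of the antibody table in both studies. Near copies were found with BLAST 2.17.0 (at least 85% identity over 150 bases), and promoters came from RefSeq (GRCm38.p6). Alternatives were DESeq2 1.42.0, limma-voom (limma 3.58.1), other scalings and filters, covariates and leaving out hearts. The fits were checked on simulated data.

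The members and lists were chosen with earlier results of these data known. One further gene of the pathway lists is not reported here. Named genes are the 9 members, the 5 genes most like them in each study, and list genes with an unadjusted p under 0.05; members of the cycle's list, paralogs and near copies are also named, outside this rule. Replicates are separate mice. Counts per member were 322 to 17485 and 54 to 18616 per heart.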

Additional observations from a re-analysis of the deposited data

Results flagged for a closer look

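Among 52 groups of 7 or 8 hearts examined for a single heart far from the rest, 2 had such a heart, both times Con mouse 22. For independent groups chance gives about 1 in 20. These groups share hearts and the members are correlated, so the count cannot be judged against chance. *Dlst* was at 265 CPM in Con mouse 22 and between 381 and 481 CPM in the other Con hearts. *Sucla2* was at 177 CPM there and between 305 and 391 CPM in the others. The same library had the lowest long-over-short transcript index of the study (-0.50), the lowest share of counts from the mitochondrial genome (25.9%), and the highest TMM factor (1.10). Its summed levels of fibroblast (722 CPM), endothelial (777), macrophage and leukocyte (91.2) and blood genes (2692) were also the highest of the 16 hearts, and its cardiomyocyte sum, 55921 CPM, lay above the Con median of 50927. The part of these measures in its low values was not tested.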

How the results depend on the processing

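No paired analysis was possible because the groups compared share no replicate numbers. Across all alternatives no member passed an adjusted p of 0.05: over 234 fits of a member in the peptide study the smallest adjusted p was 0.564, and over 252 in the antibody study it was 0.699. Estimates changed sign in 37 of the 234 and 18 of the 252, and the cause was not tested. In the peptide study DESeq2 called 12 genes where edgeR called 0. With the atrial score entered as a covariate, 0 of 9 members were lower with Aβ42, with log2 fold changes of 0.14 (*Cs*), 0.083 (*Ogdh*), 0.15 (*Dlst*), 0.13 (*Suclg1*), 0.23 (*Suclg2*), 0.14 (*Fh1*), 0.18 (*Mdh1*), 0.12 (*Mdh2*). *Sucla2* was -0.0099 with limma-voom, -0.017 with the mitochondrial share and -0.022 with the long-over-short index as a covariate. *Mdh1* was 0.0091 with total counts and 0.0071 without the 2 hearts with the largest normalization factors, where *Suclg2* was 0.041. In the antibody study *Suclg1*, at -0.00019, turned to 0.0050 with DESeq2, 0.0050 with RLE factors, 0.0014 without mitochondrial genes, 0.014 with no filter, 0.020 with the atrial score, 0.089 with the mitochondrial share, 0.061 with the index and 0.016 without the 2 hearts. *Mdh2* was -0.0024 with total counts, and *Ogdh* was -0.023 with the mitochondrial share and -0.0067 without the 2 hearts. Ranked by the longest transcript, 6 of 9 members kept their rank in the peptide study, as did 5 of 9 in the antibody study, and without Con mouse 22 the median correlation between the sets of 6 and 3 members was -0.25. The index, the fit without 2 hearts and the correlations without Con mouse 22 were chosen after seeing the data.

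With each heart left out in turn, the genes called in the peptide study numbered 0 to 3 (3 without Abeta42_3452 and 1 without ScrAbeta42_3448) and in the antibody study 0. Members lower with Aβ42 numbered 2 (without Abeta42_3457) to 9 (without ScrAbeta42_3448) and members higher with 3D6 8 to 9. Log2 fold changes in the peptide study ran from -0.083 to 0.062 for *Dlst*, -0.078 to 0.10 for *Sucla2*, -0.10 to 0.033 for *Suclg1*, -0.080 to 0.10 for *Suclg2*, -0.11 to 0.031 for *Fh1*, -0.065 to 0.062 for *Mdh1* and -0.089 to 0.023 for *Mdh2*, and kept their sign for *Cs* (-0.14 to -0.011) and *Ogdh* (-0.21 to -0.052). In the antibody study they ran from -0.045 to 0.047 for *Suclg1* and kept their sign for the other 8, of which *Ogdh* ran from 0.016 to 0.15 and *Sucla2* from 0.031 to 0.16, lowest without Con mouse 22. Leaving out the same heart gave the lowest values of *Cs* (0.084 to 0.20), *Dlst* (0.039 to 0.14), *Suclg2* (0.061 to 0.24) and *Mdh1* (0.10 to 0.40). Dlst-211 ran from -1.15 to 0.11. Log2 ratio differences ran from -0.0099 to 0.090 for *Sucla2* to *Suclg2* and -0.0070 to 0.069 for beta to alpha subunits in the peptide study. For *Ogdh* to *Dlst* they ran from -0.19 to -0.092 there. In the antibody study *Ogdh* to *Dlst* ran from -0.020 to 0.043, *Mdh2* to *Mdh1* from -0.66 to -0.10, *Sucla2* to *Suclg2* from -0.11 to -0.039 and beta to alpha subunits from 0.0092 to 0.26, the ends nearest 0 of the last 3 being without Con mouse 22.

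In data simulated from these libraries, edgeR recovered 82.9% of the tested genes changed by 2-fold among 11897 for the peptide study and 89.0% among 12199 for the antibody study, but 33.5% of such transcripts among 19793. Changes smaller than 2-fold were not simulated.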

Other observations

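No gene in the lists of other cell types and tissues passed an adjusted p of 0.05 with edgeR. With Aβ42, all 5 atrial genes had higher estimates (49.5% of all tested genes were lower), with the smallest p for *Bmp10* (184 ± 453 against 1.47 ± 2.92 CPM, log2 fold change 6.81, unadjusted p = 0.00242, adjusted p = 0.639). Of 4 tested adipocyte genes 4 had higher estimates (median log2 fold change 2.49), and those with an unadjusted p under 0.05 were *Ucp1* (43.1 ± 92.3 against 0.0553 ± 0.0945 CPM, log2 fold change 9.13, unadjusted p = 0.00114, adjusted p = 0.551), *Cidea* (46.0 ± 25.6 against 31.8 ± 5.07 CPM, log2 fold change 0.54, unadjusted p = 0.0464, adjusted p = 0.758), *Plin1* (16.5 ± 31.3 against 2.51 ± 3.71 CPM, log2 fold change 2.66, unadjusted p = 0.0477, adjusted p = 0.762). The summed level of the adipocyte list ranged from 28.4 to 497 CPM with Aβ42 (highest in Abeta42_3457, and at most 146 in the others) and from 27.7 to 48.6 with ScrAβ42. All 4 smooth muscle and pericyte genes (median 0.48) and all 3 mesothelial genes (0.89) had higher estimates with Aβ42, while all 5 blood genes (-1.37) and all 5 tested fast skeletal muscle genes (-0.72) had lower estimates. Summed blood levels were 15945 CPM in ScrAbeta42_3448, 10048 in ScrAbeta42_3449, at most 6430 in the other ScrAβ42 hearts and at most 5073 with Aβ42. The summed level of the smooth muscle list was 2256 CPM in Abeta42_3457, between 764 and 1001 in the other Aβ42 hearts and between 714 and 1141 with ScrAβ42. Abeta42_3457 was also highest in the atrial list (8417 CPM) and the mesothelial list (135 CPM). Estimates were lower for 6 of 8 cardiomyocyte genes (-0.11), 3 of 4 endothelial genes (-0.11) and 3 of 4 macrophage and leukocyte genes (-0.12), and higher for 3 of 5 fibroblast genes (0.016).

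With 3D6, where 47.4% of all tested genes were higher, estimates were lower for all 4 endothelial genes (median log2 fold change -0.17), with the smallest p for *Pecam1* (123 ± 7.45 against 144 ± 18.9 CPM, log2 fold change -0.23, unadjusted p = 0.0134, adjusted p = 0.946). They were also lower for all 5 fibroblast genes (-0.066), all 4 smooth muscle and pericyte genes (-0.15), all 4 macrophage and leukocyte genes (-0.15), all 5 blood genes (-0.087), 5 of 8 cardiomyocyte genes (-0.044) and the 1 tested adipocyte gene (-0.063). Con mouse 22 had the highest summed level of the study in the endothelial, fibroblast, macrophage and leukocyte, and blood lists. All 4 tested atrial genes had lower estimates too (-0.97), but Con mouse 15 stood apart: the summed atrial level was 2776 CPM there and at most 159 in the other Con hearts, while the medians were 98.5 CPM with 3D6 and 2.88 with Con, the opposite direction. Both tested mesothelial genes were lower, with the smallest p for *Wt1* (3.69 ± 0.446 against 5.05 ± 1.33 CPM, log2 fold change -0.45, unadjusted p = 0.0113, adjusted p = 0.946), and no fast skeletal muscle gene had enough counts to be tested. The summed mesothelial level was 27.0 CPM in Con mouse 15 and at most 10.1 in the other hearts.

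In the antibody table, 1123 transcripts with 0.381% of the estimated counts are not in the annotation used here, and one of them, ENSMUST00000239073, was chosen after its values were seen. It had a mean of 6249 estimated counts per heart, 909 ± 98.5 CPM with 3D6 and 882 ± 76.4 with Con (n = 8 each), with a log2 fold change of 0.043 (SE 0.077, edgeR adjusted p = 1.00). Its gene was not assigned here, and whether it holds counts of *Mdh1*, whose main transcript was listed at 0, was not settled.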
